A study of Arabidopsis thaliana with 6 samples.

Results

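GH3 proteins are acyl acid amido synthetases, enzymes that join the auxin indole-3-acetic acid or other small plant acids to amino acids. Most auxin conjugates made in this way are stored or marked for breakdown, so these enzymes lower the level of free auxin, and several GH3 genes are themselves switched on quickly by auxin. Other members of the family act on jasmonate or on precursors of salicylate. Free auxin is known to be high around the quiescent centre of the root tip, the slowly dividing core of the stem cell niche.

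The 10 genes described here are GH3.3, WES1 (also called GH3.5), GH3.17 and 7 genes named only by locus in the gene tables used. Those 7 are AT5G51470, AT1G23160, AT1G48660, AT1G48670, AT5G13350, AT5G13360 and AT5G13370. All 10 genes were chosen by name with earlier results of this comparison known, so their counts support nothing about the family. The measured value that entered the rule was brightness, since a gene with several probe sets annotated to it alone was to be represented by the one selected on the highest mean log2 intensity over all 6 arrays. In fact 8 of the 10 genes had exactly 1 such probe set, so this choice had no effect, while AT5G13360 and AT5G13370 had none and share 1 probe set. These 8 are among 13355 genes with a probe set of their own. A gene is called measured here where the annotation gives it such a probe set. The gene tables used here give the locus-only genes no function, and they are called GH3 genes because the list places them there.

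The arrays hold RNA of cells sorted by fluorescence from roots of Col-0 Arabidopsis thaliana seedlings grown for 5 days under standard conditions, 3 samples from plants with WOX5::GFP and 3 from plants with pTMO5::GFP. The WOX5 promoter is known to mark the quiescent centre, and the TMO5 promoter young vascular and xylem cells. The study concerns the regulatory networks of root stem cells, and the comparison asks which transcripts differ between the populations. All samples carry a GFP reporter and were sorted, and no unsorted or reporter-free sample is analysed here.

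The labels contradict each other on cell type, since samples from WOX5::GFP plants are quiescent centre in 1 field and xylem in another, and the reverse holds for pTMO5::GFP. Groups therefore carry the name of the reporter in the title. Of 9 quiescent centre and niche markers, 5 had a probe set of their own, and their summed intensity ran from 1838 to 3170 on WOX5 arrays and from 693 to 754 on TMO5 arrays. These sums mostly reflect BBM, at 1055, 2036 and 1101 on WOX5 arrays and 645, 666 and 585 on TMO5 arrays. BBM had the smallest rise of the 5, at 2.11-fold (limma adjusted p = 0.048). All 5 markers (BBM, AGL42, JKD, BRL1 and ACR4, listed as CR4) were higher in WOX5 cells, where 14.3% of all tested probe sets were. Of 9 xylem markers only PHV and LHW had an annotated probe set of their own. PHV was 2.08-fold lower in WOX5 cells, while LHW had a log2 difference of 0.08 ± 0.23 (SE). The WOX5 cells were not marked by niche genes alone. The 1 measured ground tissue marker, AT1G62500, was 12.3-fold higher there (limma adjusted p = 0.0026). The measured phloem marker OPS and the epidermis markers EXPA7 and EXPA18 did not pass, and no root cap marker had an annotated probe set of its own. WOX5 and TMO5 themselves had no probe set of their own in the annotation. No label states that replicates are independent plantings, and a p-value here reflects array-to-array spread that could be purely technical.

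Intensities are on the authors' linear scale, with a trimmed mean of 250.0 on each array. Median intensities were 91.7 to 92.6 on WOX5 arrays and 68.1 to 74.5 on TMO5 arrays. A background level was set from 27 bacterial control probe sets without a spike, at 31.1 in WOX5 and 23.4 in TMO5 intensity units. The BioB hybridisation spike, the most dilute one, read 4.82 to 53.6 on WOX5 arrays and 260 to 506 on TMO5 arrays. The brighter spikes had lower medians on WOX5 arrays too. These were 646 against 1046 on TMO5 arrays for BioC, 2267 against 3231 for BioD and 10919 against 16005 for Cre. The part of this shift in differences of dim or bright probe sets was not tested. That holds for falls of any size in WOX5 cells, those given as bounds included. No array carries both reporters, so how each set was handled and what cells it holds cannot be told apart. In RNA from many cells, fewer cells of a type and less RNA per cell cannot be told apart either.

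Of the 8 measured genes, GH3.17, AT5G51470 and AT1G23160 were higher in WOX5 cells, GH3.3 and WES1 were lower, and AT1G48660, AT1G48670 and AT5G13350 did not pass (limma adjusted p under 0.05 over 22746 probe sets). Among all tested probe sets 14.3% were called higher and 9.49% lower in WOX5, or 23.8% in either direction. The groups did not overlap for 3 genes that were higher and 2 that were lower, against 24.4% and 22.4% of all probe sets, or 46.8% in either direction. The median log2 difference was 0.16 over the 8 genes and 0.03 over all tested probe sets. Members moved in opposite directions, so this median describes none of them. Genes lower in WOX5 numbered 1 without WOX5 replicate 3 or any 1 TMO5 array, and genes higher numbered 2 without WOX5 replicates 1 or 3 or TMO5 replicates 2 or 3.

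**Figure D1:**
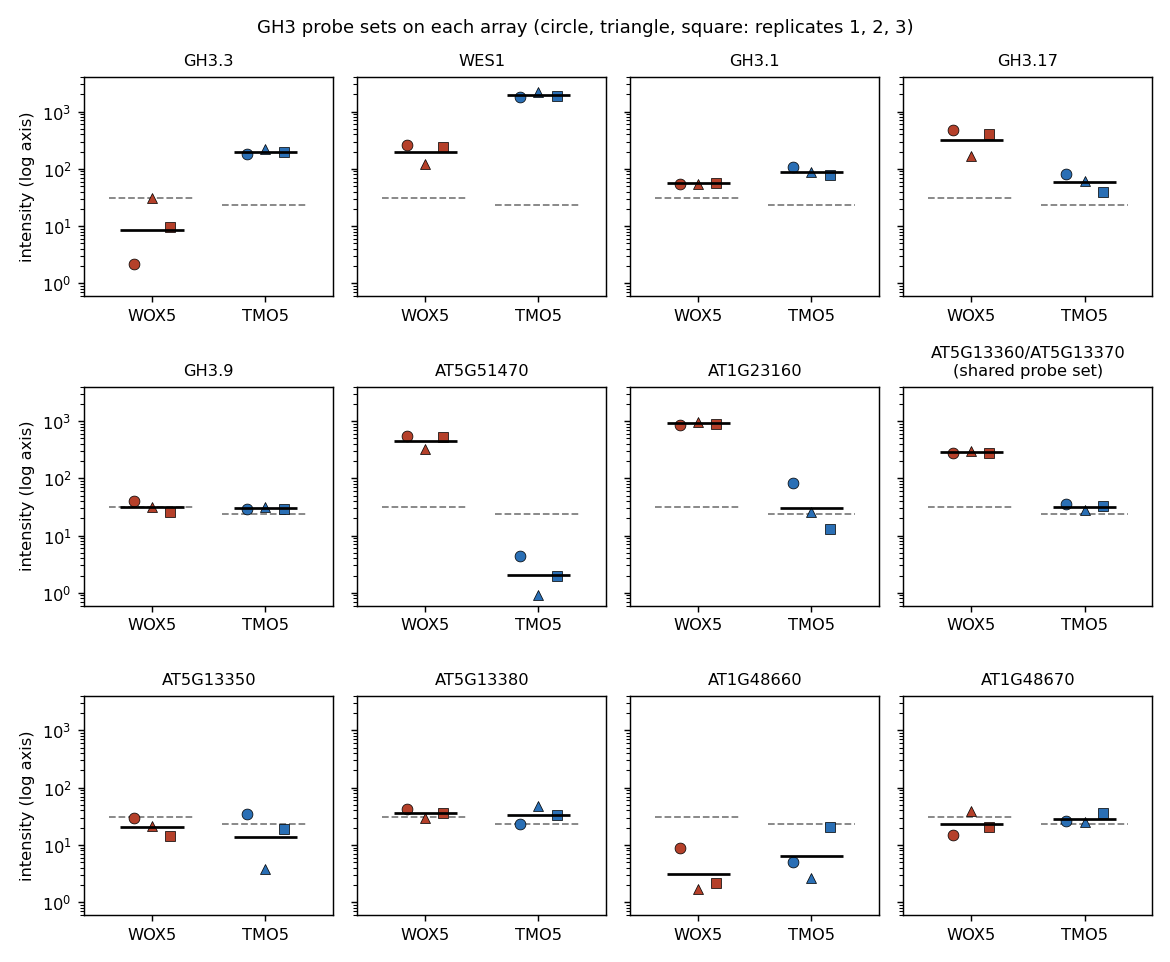
Intensity of each GH3 probe set on every array (log axis), WOX5 left of TMO5, with circles, triangles and squares for replicates 1, 2 and 3, solid lines for the mean of log2 values and dashed lines for the background level of the group (31.1 in WOX5, 23.4 in TMO5). GH3.3, WES1 and GH3.1 lie lower in WOX5, GH3.17, AT5G51470, AT1G23160 and the shared probe set lie higher, and the other 5 overlap between groups.

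GH3.3, which joins auxin to amino acids, had intensities of 2.15, 31.2 and 9.72 on the WOX5 arrays, against 181, 219 and 201 on the TMO5 arrays. Every TMO5 value was above every WOX5 value, and on WOX5 arrays only replicate 2 reached the background level. Because WOX5 cells lay within background, the fall is given as a bound, at least 6.41-fold lower in WOX5 cells (limma adjusted p = 0.024). The BioB spike also read lower on WOX5 arrays, with a median of 32.0 against 385 on TMO5 arrays. The part of that shift in the GH3.3 bound was not tested. The measured log2 difference was -4.52 ± 0.95 (SE), with a 95% interval of -6.88 to -2.17, and its size rests on WOX5 values within background.

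Single arrays weighed on GH3.3. The call was lost without WOX5 replicate 3 (adjusted p = 0.065) and without TMO5 replicates 1, 2 or 3 (0.068, 0.076 and 0.073). The measured log2 difference was -3.52 without WOX5 replicate 1 and -5.45 without WOX5 replicate 2, which are values within background. The bound itself stayed between 6.12-fold and 6.74-fold when any 1 array was left out.

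WES1 encodes an enzyme known to conjugate auxin and also salicylate. Its intensities were 264, 122 and 237 on WOX5 arrays, against 1794, 2193 and 1903 on TMO5 arrays, a mean of 208 ± 75.4 in WOX5 and 1963 ± 206 in TMO5 (SD, n = 3 each). Unlike GH3.3, WES1 was above background on all 6 arrays, so its fold is a measured one. It was 9.92-fold lower in WOX5 cells (log2 difference -3.31 ± 0.33 SE, limma adjusted p = 0.0027). The fold ran from 7.81 without WOX5 replicate 2 to 11.5 without WOX5 replicate 1, and the call was kept under every alternative tried.

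GH3.17 encodes an auxin-conjugating enzyme that prefers glutamate. It ran opposite to GH3.3 and WES1, with intensities of 468, 167 and 405 on WOX5 arrays against 79.8, 61.6 and 39.7 on TMO5 arrays. All 6 values were above background and the groups did not overlap, although WOX5 replicate 2 lay well under the other WOX5 arrays. The rise of GH3.17 in WOX5 cells was 5.46-fold (log2 difference 2.45 ± 0.48 SE, 95% interval 1.26 to 3.64, limma adjusted p = 0.019).

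The GH3.17 call was lost without WOX5 replicates 1 or 3 (adjusted p = 0.059 and 0.062) and without TMO5 replicates 2 or 3 (0.062 and 0.061), with folds of 4.49 to 5.63. Without WOX5 replicate 2 it was 7.51-fold higher (adjusted p = 0.012). AT1G62500, on the marker list as the cortex gene CO2, also had its lowest WOX5 value on replicate 2, at 521, 249 and 488 on WOX5 arrays against 30.6, 42.0 and 26.6 on TMO5 arrays. It was the 1 measured of 3 ground tissue markers, and its part in the GH3.17 result was not tested.

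Outside the list, GH3.1 and GH3.9 are auxin-conjugating GH3 genes with probe sets of their own. GH3.1 read 55.0, 55.5 and 56.7 on WOX5 arrays and 106, 86.8 and 78.0 on TMO5 arrays, a fall of 1.61-fold in WOX5 cells (limma adjusted p = 0.038). The groups did not overlap, but the call was lost when any 1 array was left out, with adjusted p from 0.059 to 0.11. GH3.9 read 39.7, 30.9 and 25.5 on WOX5 arrays and 29.6, 31.5 and 29.5 on TMO5 arrays. These values lay close to background in both groups and overlapped (log2 difference 0.06 ± 0.20 SE, 95% interval -0.44 to 0.57). BRU6 (GH3.2), GH3.4, DFL1 (GH3.6), DFL2 (GH3-10), JAR1, which makes the active jasmonate conjugate, and PBS3, which acts in salicylate synthesis, had no annotated probe set and are not analysed here.

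**Figure D2:**
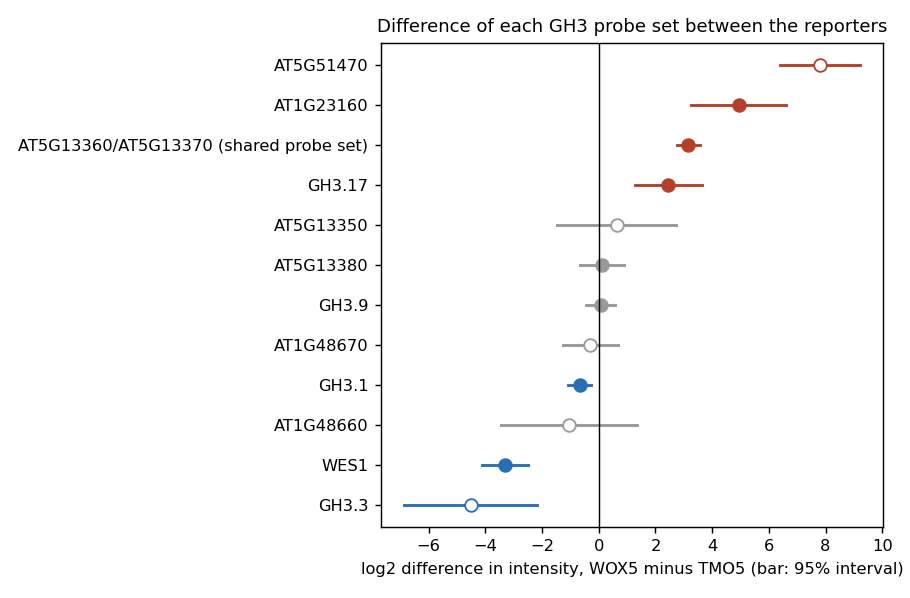
Log2 difference in intensity, WOX5 minus TMO5, of each GH3 probe set with its 95% interval from the limma fit, in red where higher in WOX5, blue where lower and grey where it did not pass; open circles have at least 1 group within background. The differences run from -4.52 for GH3.3 to 7.80 for AT5G51470.

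Of the 5 measured genes named here only by locus, AT5G51470 and AT1G23160 rose in WOX5 cells. AT5G51470 had intensities of 538, 330 and 530 on WOX5 arrays, against 4.38, 0.90 and 1.93 on TMO5 arrays. All 3 WOX5 arrays lay far above background and no TMO5 array reached it. The rise of AT5G51470 in WOX5 cells was therefore at least 19.4-fold (limma adjusted p = 0.0014), and this bound ran from 17.9-fold to 22.8-fold when any 1 array was left out. The size of the measured log2 difference, 7.80 ± 0.57 (SE), rests on TMO5 values that are not above background.

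AT1G23160 read 867, 974 and 904 on WOX5 arrays, against 83.4, 25.3 and 12.8 on TMO5 arrays. The WOX5 arrays were close together, whereas the TMO5 arrays spread widely and replicate 3 lay within background. The rise of AT1G23160 in WOX5 cells was 30.5-fold (log2 difference 4.93 ± 0.68 SE, limma adjusted p = 0.0067). The fold depended on TMO5 replicates 1 and 3, at 50.8-fold without replicate 1 and 19.9-fold without replicate 3, and the call was kept under every alternative tried.

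The 4 genes AT5G13350, AT5G13360, AT5G13370 and AT5G13380 follow each other in the TAIR10.1 gene order, and only AT5G13350 and AT5G13380 had a probe set of their own. AT5G13350 read 30.0, 21.8 and 14.1 on WOX5 arrays, against 34.6, 3.83 and 18.9 on TMO5 arrays. It lay within background in both groups, and the interval of its log2 difference, -1.48 to 2.73, leaves room for a change of several fold either way. AT5G13380, which is not on the list, read 41.8, 29.7 and 36.3 on WOX5 arrays and 23.0, 47.8 and 32.8 on TMO5 arrays, near background with overlapping groups (log2 difference 0.11 ± 0.31 SE).

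Between them, AT5G13360 and AT5G13370 are both named on 1 probe set, so its signal cannot be assigned to either gene. That probe set read 279, 300 and 272 on WOX5 arrays, against 35.6, 27.5 and 33.3 on TMO5 arrays. Replicates were close together in both groups, and the TMO5 values lay just above background. The rise of the signal in WOX5 cells was 8.88-fold (log2 difference 3.15 ± 0.16 SE, limma adjusted p = 0.00079), with log2 differences of 3.04 to 3.23 when any 1 array was left out. Near-identical copies can share probes, and the annotation does not say which transcripts contribute.

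AT1G48660 and AT1G48670 are also neighbours in the TAIR10.1 order, and neither passed. AT1G48660 read 8.71, 1.71 and 2.14 on WOX5 arrays and 5.08, 2.65 and 20.6 on TMO5 arrays, all within background. AT1G48670 read 15.1, 39.7 and 20.9 on WOX5 arrays and 26.0, 24.9 and 35.8 on TMO5 arrays, within background by its mean in WOX5 and slightly above it in TMO5. AT1G48660 was thus not measurable in either population, and for AT1G48670 the 95% interval of the log2 difference was -1.27 to 0.68.

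**Figure D3:**
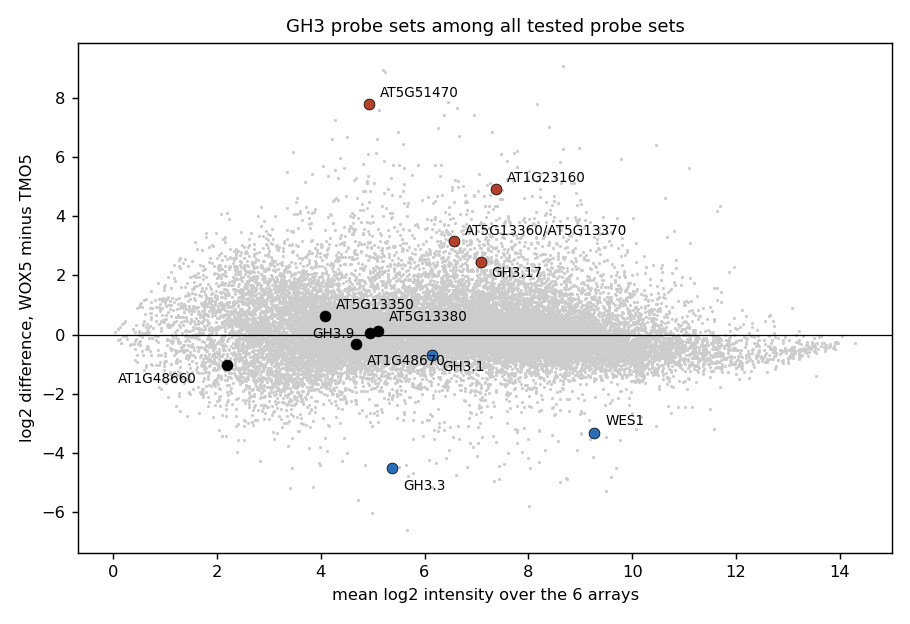
Log2 difference (WOX5 minus TMO5) against mean log2 intensity over the 6 arrays for all 22746 tested probe sets (grey), with the GH3 probe sets in red (higher in WOX5), blue (lower) or black (not passed). AT5G51470 at 7.80 and GH3.3 at -4.52 lie near the edges of the cloud, and GH3.1, GH3.9, AT5G13380, AT5G13350, AT1G48670 and AT1G48660 lie inside it.

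Whether genes differed from each other in the size of their differences was not tested, since no fit compared genes. Overlap of separate intervals does not decide an order, so the intervals are given as a description only. The 95% intervals of GH3.3 and WES1 overlapped. Among the rises, the interval of AT5G51470 (6.39 to 9.21) overlapped that of AT1G23160 (3.25 to 6.61), and the interval of AT1G23160 overlapped that of GH3.17 (1.26 to 3.64). The intervals of AT5G51470 and GH3.17 did not overlap, although the size for AT5G51470 rests on signals under background in TMO5 cells. With a floor at the 20th percentile of each array, the log2 difference was 4.69 for AT5G51470 and 4.79 for AT1G23160, so these rises have no settled order. Differences of probe sets, and not their levels, are set side by side, since probe sets differ in brightness for the same amount of RNA.

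WOX5 replicate 2 stood apart from the other WOX5 arrays in a way that split the genes. Relative to the mean log2 value of WOX5 replicates 1 and 3, replicate 2 was low for GH3.17, WES1 and AT5G51470, with differences of -1.38, -1.03 and -0.69. The difference was 0.14 for AT1G23160, 0.12 for the probe set of AT5G13360 and AT5G13370, and -0.01 for GH3.1. For GH3.3 it was 2.77, between values that lay at or within background. Over the 15280 probe sets above background in WOX5 cells, the same difference had a median of 0.04 and a 5th to 95th percentile range of -0.92 to 0.81, so GH3.17 and WES1 lay outside that range. The difference was -1.02 for the cortex marker AT1G62500 and ran from 0.33 to 0.92 for the 5 niche markers. Because WES1 is low in WOX5 cells and GH3.17 is high there, the same dip widened the WES1 difference and narrowed that of GH3.17.

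Genes next to the changed GH3 genes in the TAIR10.1 order were read to see whether they differed too. AT2G23160 beside GH3.3 and AT1G28135 beside GH3.17 lay within background in both groups. Beside WES1, AT4G27250 and AT4G27270 had log2 differences of -0.39 ± 0.45 and 0.27 ± 0.17 (SE), and beside GH3.17, AT1G28120 had one of 0.19 ± 0.14, and these 3 did not pass. Beside GH3.1, which was lower in WOX5 cells, AT2G15000 was lower as well, at 774, 357 and 810 on WOX5 arrays against 1757, 1936 and 1838 on TMO5 arrays, a 3.03-fold difference (limma adjusted p = 0.027). The direct neighbours of AT5G51470 and AT1G23160 had no annotated probe set of their own. The genes around AT1G48660 and AT1G48670, which did not pass themselves, were read as well. AT1G48650, which precedes AT1G48660, was 1.72-fold lower in WOX5 cells, at a mean of 351 against 597 in TMO5 cells (limma adjusted p = 0.041). AT1G48690, which follows AT1G48670, did not pass and lay within background in both groups.

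The probe sets most like 4 of the members over the 6 arrays were found by the Euclidean distance between log2 values centred on their own mean, among 13354 other genes. The nearest to WES1 was EXPB1, a beta-expansin gene of the cell wall, at a distance of 0.36, followed by AT1G56720 at 0.43. EXPB1 read 119, 45.8 and 97.2 on WOX5 arrays, against 643, 734 and 805 on TMO5 arrays. Its WOX5 replicate 2 was low, as for WES1, which choosing it by likeness over these same arrays favours. For GH3.17 the nearest were AT1G22440 at 0.68, with 872, 534 and 858 on WOX5 arrays against 161, 128 and 111 on TMO5 arrays, and AT3G25750 at 0.69, which lay within background throughout. For AT5G51470 they were AT5G02070 at 1.20 and AT4G26870 at 1.23, and for GH3.3 AT3G19920 at 1.59 and AT3G21340 at 1.78, each within background in the population where it was low. No member was among the nearest genes of another.

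Other genes of auxin metabolism and response gave the setting of these enzymes. Of 89 listed genes only 15 had a probe set of their own, of which 4 were higher and 4 lower in WOX5 cells and 7 did not pass, with a median log2 difference of -0.18. No auxin transporter, receptor or ARF gene of the lists had an annotated probe set of its own, nor had any of the 6 jasmonate or 5 salicylate genes. Whether such genes are read by some of the 8730 tested probe sets without a gene name cannot be told here. The share called, 8 of 15, stands beside 23.8% of all tested probe sets, and the lists were chosen with earlier results known. Rises numbered 2 without WOX5 replicate 3 or without TMO5 replicates 2 or 3.

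Among genes that remove auxin by other routes, UGT74D1, which attaches glucose to auxin, read 429, 165 and 432 on WOX5 arrays, against 98.0, 64.1 and 88.5 on TMO5 arrays. It rose 3.80-fold in WOX5 cells (limma adjusted p = 0.030), with the same dip on WOX5 replicate 2 as GH3.17 (-1.39). AT1G14130, on the list of hydrolysis and oxidation and known here only by locus, was 2.86-fold higher, at 193 ± 46.2 in WOX5 and 66.8 ± 9.52 in TMO5 cells (SD, n = 3 each). Of 4 measured auxin synthesis genes, YUC2 was 1.93-fold lower in WOX5 cells and YUC4, YUC6 and YUC11 did not pass.

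Aux/IAA genes as a family encode repressors of auxin response, and many are induced by auxin. Whether the 7 measured here respond to auxin was not tested. Of these 7, 2 were higher and 3 lower in WOX5 cells, beside 14.3% and 9.49% of all tested probe sets. The list was chosen with earlier results known, so this count supports nothing about the family. IAA33 read 1095, 2173 and 1370 on WOX5 arrays, against 60.1, 96.5 and 86.8 on TMO5 arrays, a rise of 18.6-fold in WOX5 cells (limma adjusted p = 0.0015). IAA31 read 12.2, 13.5 and 14.4 on WOX5 arrays, against 93.8, 101 and 69.6 on TMO5 arrays, at least 2.80-fold lower (limma adjusted p = 0.0014). IAA20 was higher by 2.15-fold and IAA29 lower by at least 6.81-fold. The part of the lower spike readings on WOX5 arrays in the bounds of IAA31 and IAA29 was not tested. IAA18, named after its values were seen, was 2.34-fold lower, and IAA30 and IAA34 did not pass.

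**Figure D4:**
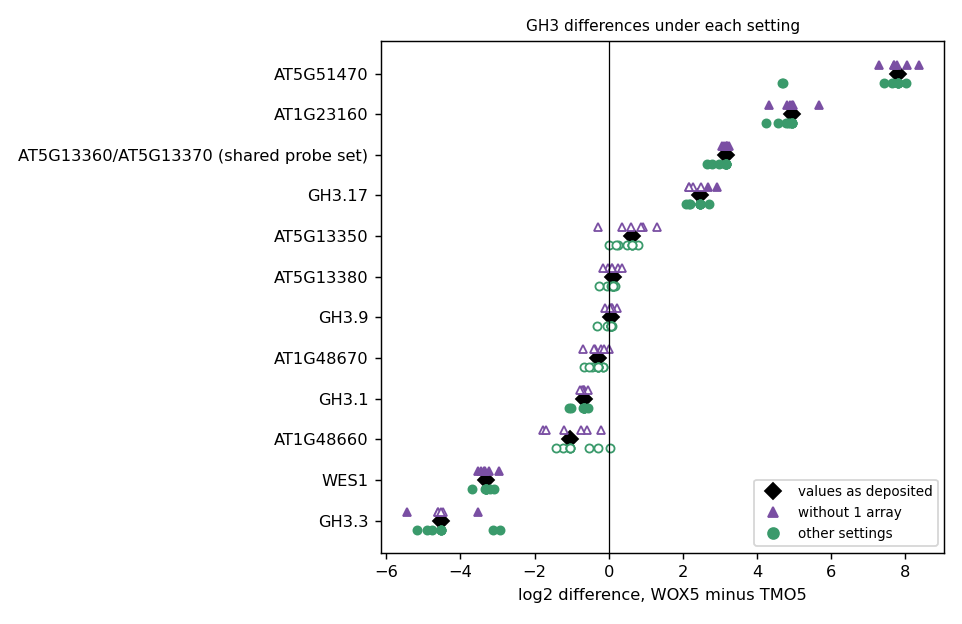
Log2 difference (WOX5 minus TMO5) of each GH3 probe set with the values as deposited (diamonds, always filled), without 1 array (triangles) and under the other settings (circles), with open triangles and circles at an adjusted p of 0.05 or more. WES1, AT5G51470, AT1G23160 and the shared probe set keep filled symbols throughout, and GH3.17 runs from 2.07 to 2.91.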

How the data were processed

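Biotin-labelled RNA was read on Affymetrix arrays. More than 1 labelling protocol is named, per the labels' protocols, and which applied to these samples is unstated. Linear intensity values of 22810 probe sets, without detection calls, are what the authors deposited, and the software behind them is unstated. Values under 1 (1036 of them) were raised to 1 before taking log2. Without 64 control probe sets, 22746 entered a fit of WOX5 minus TMO5 (lmFit and eBayes of limma 3.58.1, R 4.3.3), with Benjamini-Hochberg adjustment and a threshold of 0.05. The procedure was first run on simulated data without the floor, with changes placed only in probe sets bright in TMO5. That run cannot speak for calls where a group lay near the floor. "Higher", "lower" and "fell" describe differences that passed.

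Background was the 95th percentile of the control probe sets' group means of log2 values. A gene is within background where its group mean of log2 is not above it; a bound takes, on each array of the dim group, the higher of the background and the measured value. Folds come from log2 means. Arrays have no read depth, and their number limits the precision.

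Genes were named by the platform annotation, updated through the TAIR10.1 table, which left 13513 tested probe sets with 1 gene, 503 with more and 8730 unnamed. Members, gene lists and naming rule were chosen with earlier results of these data known. Named are all members, other annotated GH3 genes, the 2 largest rises and falls per list (or the smallest p) and the 2 nearest profiles of 4 members. Alternatives were other scalings, floors, an offset, a filter, variance models, array weights, a replicate block, averaged probe sets and single arrays left out. Same-numbered arrays did not deviate together (correlations of -0.05, 0.01 and -0.01), so they were not treated as pairs. No sequence table was used here, so no sequence is printed.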

Additional observations from a re-analysis of the deposited data

Results flagged for a closer look

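The probe set that names both AT5G13360 and AT5G13370 enters no count of genes, because its signal belongs to no single gene. Its mean intensity was 284 ± 14.6 in WOX5 and 32.1 ± 4.18 in TMO5 cells (SD, n = 3 each), against background levels of 31.1 and 23.4 set from control probe sets. It is listed here as a signal outside the gene-by-gene comparison that stood above the controls. Groups of 3 arrays were not tested for outlying values.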

How the results depend on the processing

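The directions of GH3.3, WES1, GH3.17, AT5G51470, AT1G23160 and GH3.1 and of the probe set of AT5G13360 and AT5G13370 held with other scalings, the floor, the offset, array weights and any 1 array left out. The filter, the variance trend, the replicate block and averaged probe sets leave these log2 differences as they are, so they bear on calls alone. Averaging could hardly change even a call, since each of these genes had only 1 probe set of its own. WES1, AT5G51470, AT1G23160 and that probe set kept their calls in all 15 alternatives. Members lower in WOX5 numbered 1 to 2 when 1 array was left out and members higher 2 to 3, and auxin pathway genes 2 to 4 higher and 3 to 4 lower. Over all probe sets, leaving out 1 array gave 2101 to 2854 higher and 726 to 2000 lower. Calls lower in WOX5 numbered 5297 after centring arrays on medians, 3247 after flooring at the 20th percentile and 3314 under trended, robust variances. Of all calls 60.1% were higher on the deposited scale, 47.2% after quantile normalization and 29.7% after centring, where the median log2 difference was 0.03, -0.14 and -0.35. With a replicate block, calls were 1719 higher and 551 lower, and GH3.17 (adjusted p = 0.054) and GH3.1 (0.12) lost theirs; the block changed no other GH3 call. The sign turned, without passing, for AT1G48660 with the floor (0.04), AT1G48670 without WOX5 replicate 1 (0.01, and -0.69 to 0.01 over single arrays left out) and AT5G13350 without TMO5 replicate 2 (-0.29, range -0.29 to 1.30). It also turned for GH3.9 (quantile -0.06, centred -0.32, without 1 array -0.10 to 0.21) and AT5G13380 (quantile -0.06, centred -0.27, without WOX5 replicate 1 -0.01, without 1 array -0.15 to 0.37). Adding 16 before log2, or flooring, gave smaller differences for AT5G51470 (4.68 and 4.69) and GH3.3 (-2.94 and -3.13), as either does for values near 0, and the offset gave 4.24 for AT1G23160. The filter on dim probe sets removed AT1G48660 and AT5G13350. Other causes were not tested.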
